A study of Homo sapiens with 8 samples.

Results

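The 7 genes described here, HOXB2, HOXB3, HOXB5, HOXB6, HOXB7, HOXB8 and HOXB9, were the HOXB genes in the day 2 count table, and were 7 of its 11644 genes. They were picked by name with their lower day 2 counts in the knockout already known, so their day 2 difference is given as a description and without a test. The study compared wild-type cells of H1, a widely used human embryonic stem cell line, with H1 cells lacking SETD7, a lysine methyltransferase of histone H3 and other proteins. Undifferentiated cells (day 0) were measured in 1 wild-type and 1 knockout library, and cells on day 2 of differentiation towards blood lineages in 3 libraries of each genotype. All samples, day 0 included, carry the label of hematopoietic differentiation and were maintained in mTESR medium, with differentiation in a TESR medium whose factors the labels do not name. How the gene was disrupted, and whether the knockout line was a single clone, is not given in the sources used here.

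HOX genes encode homeodomain transcription factors that give cells of the embryo their position along the head-to-tail axis. Within a cluster they are switched on in order, from the 3′ end, whose genes act in the hindbrain and neck, to the 5′ end, whose genes act in the trunk. In the early embryo this happens as mesoderm leaves the primitive streak, under Wnt, FGF and retinoic acid signals and CDX factors, while Polycomb complexes keep the genes silent before that. PBX, MEIS and PKNOX proteins are DNA-binding partners of HOX proteins.

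In GENCODE release 29 (GRCh38), 10 HOXB genes lie on the minus strand of chromosome 17. Of these, HOXB1, HOXB4 and HOXB13 were not analysed here at day 2. The 7 genes run from HOXB2 (48540894 to 48544989) at the 3′ side to HOXB9 (48621159 to 48626356) at the 5′ side. In order between them are HOXB3 (48548870 to 48604912), HOXB5 (48591257 to 48593961), HOXB6 (48595751 to 48604992), HOXB7 (48607227 to 48633572) and HOXB8 (48611377 to 48614939), and the annotated HOXB7 reaches past HOXB8 and HOXB9. Exons of HOXB2, HOXB3, HOXB5 and HOXB6 overlap an antisense gene, HOXB-AS1 or HOXB-AS3. On the same strand, exons of HOXB3 also overlap those of HOXB4 and HOXB6. Neither the strand setting nor the handling of reads from shared exons is given in the sources used here. The values of HOXB2, HOXB3, HOXB5 and HOXB6 are therefore uncertain, while the exons of HOXB7, HOXB8 and HOXB9 overlap no other gene.

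The 7 genes share a homeobox of 180 bases, which codes for the 60 residues of the DNA-binding homeodomain. The stretch that codes for its recognition helix, residues 42 to 58, is shown for HOXB6, for its nearest relative among the 7, HOXB7, and for HOXB2 and HOXB9 at the ends of the series of genes, 5′ to 3′, from 1 GENCODE release 29 transcript a gene. In GRCh38, on the minus strand, these stretches lie at chr17:48543539-48543589 (HOXB2), chr17:48596479-48596529 (HOXB6), chr17:48607914-48607964 (HOXB7) and chr17:48622927-48622977 (HOXB9). Capitals mark the bases that differ from HOXB6, which had the highest day 2 level per length of the 7.
HOXB2: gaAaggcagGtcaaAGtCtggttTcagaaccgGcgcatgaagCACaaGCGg
HOXB6: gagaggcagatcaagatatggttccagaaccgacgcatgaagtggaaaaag
HOXB7: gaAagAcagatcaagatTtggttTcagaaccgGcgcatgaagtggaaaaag
HOXB9: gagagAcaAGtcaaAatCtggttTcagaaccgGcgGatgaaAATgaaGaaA
Of these 51 bases, HOXB7 differed from HOXB6 at 5, and HOXB2 and HOXB9 at 13 each. Over the whole homeobox, identity to HOXB6 was 88.9% for HOXB7, the highest among the 21 pairs of the 7 genes, 66.1% for HOXB2 and 63.3% for HOXB9. Between these single transcripts, 1 a gene, the longest run shared by 2 of the 7 genes was 51 bases, in HOXB6 and HOXB7, and exon overlap in other transcripts is not part of this measure. Read length is not given in the sources used here, so reads from this run might be counted for either gene.

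Day 2 libraries held 27880068 to 39553614 counts, and the biological coefficient of variation over all genes was 4.14%. SETD7 mRNA was 54.8, 56.2 and 55.6 CPM (counts scaled to library size) in the wild-type libraries against 32.9, 28.9 and 33.7 in the knockout ones, so the libraries went with their labels although the transcript was still present (log2 fold change −0.80, SE 0.058, edgeR adjusted p 9.51e-13). At day 0 it was 3.53 FPKM in wild type against 1.48. Mesoderm markers were abundant at day 2 (MIXL1 at 1467 ± 19.3 CPM in wild type; SD, n = 3). The labels do not say that replicates were separate cultures, so errors measure only the spread between these libraries, which may be technical.

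All 7 HOXB genes were lower in the knockout at day 2, while HOXB1, HOXB4 and HOXB13 were not analysed at that day. Summed over the 7, wild-type libraries held 72.2 ± 3.28 CPM and knockout libraries 39.95 ± 2.41 (SD, n = 3 each), which is 55.4% of wild type. The log2 fold changes ran from −1.45 (HOXB8) to −0.45 (HOXB3), with a median of −0.86, against a median of −0.0026 over all 11475 tested genes. In all 7, every knockout library lay below every wild-type library, which was so for 18.8% of tested genes (37.7% with either direction), and a log2 fold change of −0.45 or lower was found for 1.23%. Since this contrast was used in choosing the genes, nothing is read from these shares. In bulk RNA, fewer cells that express a gene and less RNA per cell cannot be told apart.

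**Figure D1:**
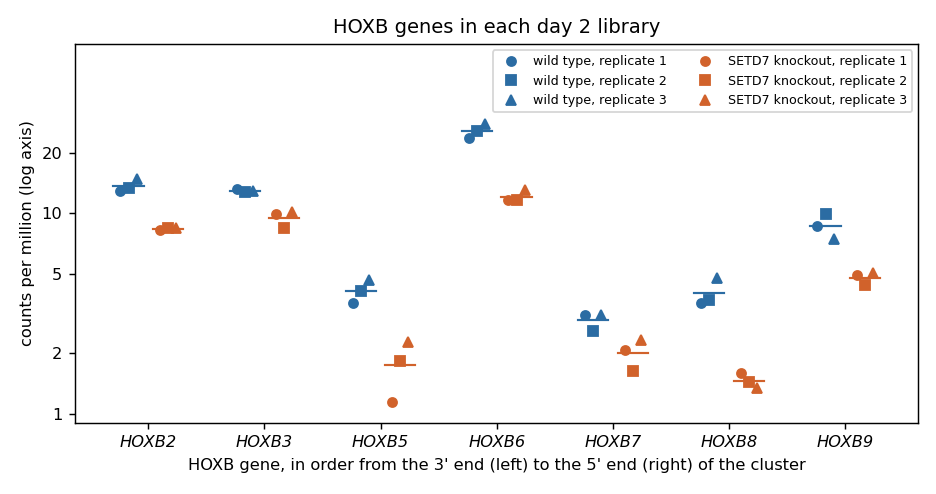
CPM (log axis) of the 7 HOXB genes in each day 2 library, in order along the cluster. Blue points are the 3 wild-type libraries, orange points the 3 SETD7 knockout libraries, symbols the replicate number and bars the mean; the 2 genotypes do not overlap in any of the 7 genes.

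At the 3′ side are HOXB2 and HOXB3, which pattern the hindbrain. HOXB2 was at 12.9, 13.4 and 14.9 CPM in the 3 wild-type libraries, in order of replicate number here and below, and at 8.24, 8.47 and 8.44 in the knockout ones. Its knockout libraries were almost level. Its log2 fold change was −0.71 (SE 0.099). HOXB3 was at 13.2, 12.8 and 12.9 CPM in wild type and at 9.87, 8.42 and 10.1 in the knockout (log2 fold change −0.45, SE 0.099), the smallest difference of the 7. Its wild-type libraries differed by less than counting alone would give, with a coefficient of variation of 1.80% against 5.08%.

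The middle genes HOXB5, HOXB6 and HOXB7 act around the level of the neck and upper trunk, and HOXB6 is also known in lateral plate mesoderm. HOXB6 was at 23.8, 25.6 and 27.8 CPM in wild type and at 11.7, 11.6 and 13.01 in the knockout. Its coefficient of variation was 7.8% in wild type and 6.6% in the knockout, against 3.6% and 4.9% from counting. The fold change had the smallest error of the 7 (−1.09, SE 0.081). HOXB5 was at 3.58, 4.08 and 4.64 CPM in wild type and at 1.15, 1.83 and 2.29 in the knockout (−1.25, SE 0.21). Knockout replicate 1, with 46 counts, was the lowest for HOXB5, and the knockout coefficient of variation was 32.6%, against 13% from counting. HOXB7 was at 3.11, 2.59 and 3.12 CPM in wild type and at 2.07, 1.63 and 2.32 in the knockout (−0.55, SE 0.21). Its groups came closest: the highest knockout library reached 0.896 of the lowest wild-type one.

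At the 5′ side are HOXB8, known for its action in myeloid progenitors, and HOXB9, which patterns the thoracic skeleton. HOXB8 was at 3.58, 3.71 and 4.74 CPM in wild type and at 1.60, 1.43 and 1.34 in the knockout (−1.45, SE 0.20). Its highest knockout library was 0.446 of its lowest wild-type one, the widest gap of the 7. HOXB9 was at 8.68, 9.91 and 7.43 CPM in wild type and at 4.92, 4.41 and 5.01 in the knockout (−0.86, SE 0.13). From the 3′ to the 5′ side the log2 fold changes therefore read −0.71, −0.45, −1.25, −1.09, −0.55, −1.45 and −0.86, with no steady rise or decline along the cluster. The 3 genes without exon overlap, HOXB7, HOXB8 and HOXB9, ran from −1.45 to −0.55.

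Because the differences were unequal, the make-up of the HOXB signal also differed between genotypes. The shares come from the same counts that were used in choosing the genes and depend on each other, so they are a description only. Exons of HOXB3 and HOXB6 overlap, so the split between these genes is uncertain. HOXB6 gave 34.5% to 36.8% of the summed HOXB CPM in the wild-type libraries and 29.5% to 30.7% in the knockout ones. HOXB3 gave 17.1% to 19.2% and 22.3% to 24.97%, and HOXB8 5.14% to 6.29% and 3.16% to 4.05%, again without overlap. The share of HOXB2 was 18.6% to 19.7% and 19.8% to 22.4%, so its groups nearly touched. Its counting error was 4.93% in wild type and 5.85% in the knockout. The shares of HOXB5, HOXB7 and HOXB9 overlapped, that of HOXB9 at 9.85% to 13.7% and 11.7% to 12.5%. Within wild type, replicate 3 was the highest library for 5 of the 7 genes. Within the knockout, replicate 3 was the highest for 5 of the 7 as well, and replicate 2 the lowest for 4.

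Levels of different genes were compared per length, as CPM per kb of exon (union of all annotated exons). On this scale HOXB6 led in wild type at 9.88 ± 0.768 (SD, n = 3), followed by HOXB2 at 5.88 ± 0.434 and HOXB9 at 3.36 ± 0.480, and the libraries of these 3 did not overlap. HOXB5 (2.01 ± 0.26), HOXB8 (1.96 ± 0.311), HOXB7 (1.92 ± 0.20) and HOXB3 (1.74 ± 0.0313) followed, and each overlapped its neighbour in the order. HOXB6 stood above 62.7% of the genes in the day 2 table and HOXB3 above 20.7%. In the knockout, on the same exon length, the first 3 were the same, at 4.64 ± 0.306, 3.59 ± 0.0532 and 1.85 ± 0.125. HOXB8 came last there (0.711 ± 0.063), but its libraries overlapped those of HOXB5, the next above it. With the overlaps in wild type, its change of place is not resolved. The place of HOXB3 depends on its length. Over its longest transcript alone its wild-type level was 3.08 and it came after HOXB9, which it then overlapped. In the knockout, over that length, it came above HOXB9 and without overlap. With the longest transcripts HOXB5 (2.01) came last in wild type, after HOXB8 (2.2) and HOXB7 (2.14), with overlap between neighbours.

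Before differentiation the genes were close to silent. At day 0 the values are FPKM (fragments scaled to transcript length and library size), of unknown depth and with 1 library a genotype, so no error or test can be given. HOXB2, HOXB5, HOXB7 and HOXB8 were listed at 0 in both libraries. HOXB3 and HOXB9 were listed at 0 in wild type and at 0.0118 and 0.0109 FPKM in the knockout, and HOXB6 at 0.0258 and 0.144. The day 0 medians over the 14070 genes listed were 8.22 and 7.90 FPKM. Of these genes, 206 (1.46%) were no higher than 0.144 in both libraries, and genes not listed are outside this share. HOXB4 was also listed at 0 in both, as were HOXA9, HOXA13 and HOXC4, while HOXA10 was at 0.0392 in the knockout alone and HOXD1 at 0.0256 in wild type alone. No HOXB gene reached 1 FPKM in either day 0 library.

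Other transcripts inside the cluster were not used to choose the 7 genes and were tested. PRAC1, a small gene between HOXB9 and HOXB13 (48721719 to 48722522), fell with them. Wild-type libraries held 2.64, 2.18 and 2.65 CPM and knockout libraries 1.05, 1.95 and 1.18 (log2 fold change −0.84, SE 0.24, edgeR adjusted p 0.00974), with no overlap. It did not pass without knockout replicate 1 (adjusted p 0.069) or knockout replicate 3 (0.0507), and its adjusted p over all alternatives ran from 0.00124 to 0.069. HOXB-AS1, antisense to HOXB2 and HOXB3, had the opposite sign. Wild-type libraries held 1.09, 0.81 and 0.796 CPM and knockout libraries 1.42, 1.60 and 1.24 (0.68, SE 0.28, edgeR adjusted p 0.0773), so every knockout library lay above every wild-type one, but the test was not passed (range 0.0661 to 0.209). HOXB-AS3, antisense to HOXB3, HOXB5 and HOXB6, was at 1.37, 1.22 and 1.76 CPM and at 0.849, 0.573 and 1.45, with overlap (−0.63, edgeR adjusted p 0.133). It passed only without knockout replicate 3 (−1.01, edgeR adjusted p 0.0332). Exons of both antisense genes overlap those of HOXB genes and the strand setting is unknown, so their counts may not be separate from those of the HOXB genes.

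The genes on either side of the cluster gave a share of calls near that of the whole table. Of 22 tested genes within 1 Mb of HOXB1 or HOXB13, 3 were higher and 3 lower in the knockout (27.3%), where 23.3% of all tested genes were called, 12.3% higher and 11% lower. Their median log2 fold change was −0.019, and none was as low as that of HOXB3. The nearest tested gene on the HOXB13 side, the autophagy receptor gene CALCOCO2 at 102 kb, went from 32.03 ± 1.48 CPM in wild-type to 30.5 ± 2.06 in knockout libraries (−0.07, edgeR adjusted p 0.437). The nearest on the HOXB1 side, the sorting nexin gene SNX11 at 405 kb, was at 19.95 ± 1.28 and 19.7 ± 1.12 CPM (−0.02, edgeR adjusted p 0.891). NGFR, a neurotrophin receptor gene 766 kb away, rose (1.26, edgeR adjusted p 3.72e-08), as did CDK5RAP3 (0.58, edgeR adjusted p 0.000343), while the transcription factor gene SP6 (−0.36, edgeR adjusted p 0.000366) fell. SCRN2 (higher) and SP2 and SLC35B1 (lower) were the others called. Single libraries decided these calls: SCRN2 did not pass without knockout replicate 1 or 2 or wild-type replicate 1 (edgeR adjusted p of up to 0.15), SP2 without knockout replicate 2 or wild-type replicate 2 or 3 (0.163), and SLC35B1 without knockout replicate 1 or 2 or wild-type replicate 1 or 3 (0.109). Without knockout replicate 2 or wild-type replicate 3, 1 flanking gene fell in place of 3.

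**Figure D2:**
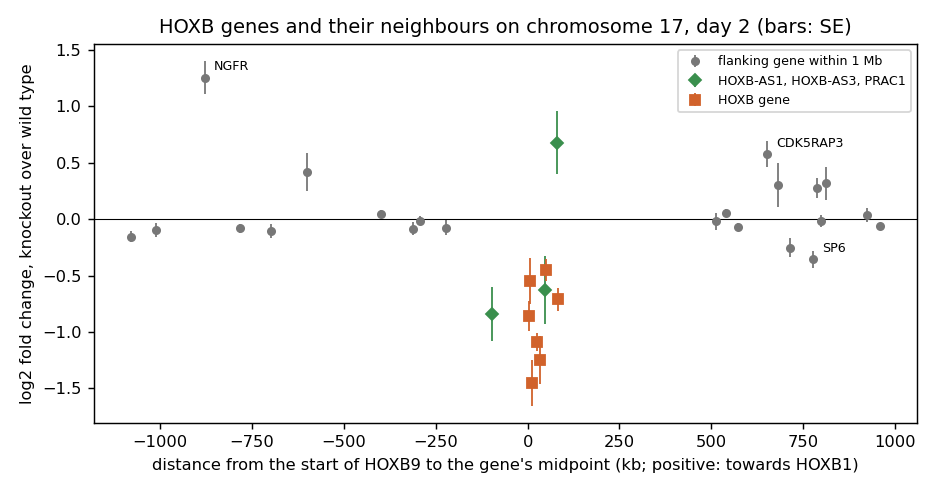
Log2 fold change (knockout over wild type, bars: SE) at day 2 against the distance in kb from the start of HOXB9 to each gene's annotated midpoint, for the 7 HOXB genes, 3 other transcripts of the cluster and the 22 tested flanking genes. The HOXB genes lie between −1.45 and −0.45, and the flanking genes between −0.36 (SP6) and 1.26 (NGFR), with CDK5RAP3 at 0.58.

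Among the lists of streak, retinoic acid, HOX partner and chromatin genes, the caudal and posterior streak regulators held the largest changes. Whether they act on the HOXB genes here was not tested. Of the 21 genes of this list in the fit, 7 fell and 3 rose (median −0.023), against 11% and 12.3% of all tested genes. EVX1, a homeobox gene of the posterior streak that lies beside the HOXA cluster on chromosome 7 and overlaps its antisense gene EVX1-AS, had 38.3, 43.5 and 40.7 CPM in the wild-type libraries against 23.8, 22.8 and 23.3 in the knockout ones, far apart (−0.81, edgeR adjusted p 5.45e-12). The non-canonical ligand WNT5B was lower as well, at 6.15 ± 0.231 against 10.8 ± 0.361 CPM (SD, n = 3; −0.82, edgeR adjusted p 9.71e-07), with all knockout libraries below the wild-type ones. NKX1-2, a marker of caudal progenitors, had 12.3 ± 0.520 against 18.9 ± 1.32 CPM (−0.62, edgeR adjusted p 1.05e-06), and the growth factor FGF17 45.02 ± 0.677 against 58.02 ± 1.46 CPM (−0.37, edgeR adjusted p 1.25e-06). FGF8 (−0.25), SP5 (−0.32, edgeR adjusted p 6.04e-08) and TBXT (listed as T) also fell, while SP8 (0.47), MESP2 (0.24) and MIXL1 (0.10) rose. MIXL1 lost its call under 4 of 12 alternatives (the replicate block, and without knockout replicate 2 or 3 or wild-type replicate 2), with edgeR adjusted p of up to 0.0968. The main retinoic acid degrading enzyme, CYP26A1, and BMP4 did not pass (−0.03, edgeR adjusted p 0.424, and −0.0023, 0.969), and the CDX genes were not analysed here at day 2.

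Of 12 retinoic acid genes, 2 rose and 1 fell, a share near the 23.3% called among all tested genes. The binding protein CRABP2 reached 198 ± 0.886 CPM against 175 ± 6.08 in wild type (0.18, edgeR adjusted p 0.000128) and the receptor RXRG 7.46 ± 0.348 against 5.21 ± 0.543 (0.52, edgeR adjusted p 0.00306). The retinol transporter STRA6 fell (−0.23, edgeR adjusted p 0.0116), but not without knockout replicate 3 or wild-type replicate 2 or 3 (adjusted p of 0.0504 to 0.0998). Of 8 TALE partners of HOX proteins, against 12.3% of all tested genes, 1 rose, PKNOX2, with 18.3 ± 1.32 CPM against 14.8 ± 0.50 (0.31, edgeR adjusted p 0.00474), and none fell (0 also in DESeq2 and at an unadjusted edgeR p under 0.05). The partner PBX3 was at 60.2 ± 0.921 CPM in wild type against 59.4 ± 0.133 (−0.02, edgeR adjusted p 0.82). The lists' medians were −0.016 and 0.054.

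Among chromatin regulators of HOX clusters, the Polycomb and MLL/trithorax lists held no larger a share of calls than the 23.3% of all tested genes (12.3% higher, 11% lower). Of 27 Polycomb genes, which hold HOX clusters silent, 2 rose (PHC1 0.19, PCGF2 0.58) and 3 fell (RBBP4 −0.15, RNF2 −0.15, CBX6 −0.17), with a median of 0.018. Without knockout replicate 1, 4 of the 27 rose, without knockout replicate 3 or wild-type replicate 3 only 1, and without wild-type replicate 3 only 1 fell. PCGF2, RNF2 and CBX6 lost their calls without 1 library (edgeR adjusted p of up to 0.116, 0.0522 and 0.16): wild-type replicate 3 for each, and for PCGF2 also wild-type replicate 2 or knockout replicate 3, for CBX6 wild-type or knockout replicate 2. EZH2, the main H3K27 methyltransferase, missed the threshold, at 97.4 ± 5.03 and 92.5 ± 2.79 CPM (−0.08, edgeR adjusted p 0.218). Of 20 MLL/trithorax genes, which hold HOX genes active, 2 rose (DOT1L 0.25, ASH2L 0.24) and 2 fell (MLLT3 −0.31, AFF1 −0.13), with a median of −0.038. AFF1 lost its call without knockout replicate 2 or 3 (adjusted p of up to 0.0869), and the count that fell became 6 when knockout replicate 1 was left out, 4 for wild-type replicate 1, and 1 for knockout replicate 3. Of 11 genes of CTCF and cohesin, which set the loops of the genome, 5 fell, where 11% of all tested genes fell, and none rose (median −0.077). The count that rose was 0 in DESeq2 and at an unadjusted edgeR p under 0.05 as well. Those that fell were STAG1 (−0.26, edgeR adjusted p 0.000224), WAPL (−0.18, edgeR adjusted p 0.000144), CTCF (−0.16, edgeR adjusted p 0.000732), STAG2 (−0.12) and PDS5B (−0.15). PDS5B lost its call without knockout replicate 2 or wild-type replicate 1 or 2 (adjusted p of up to 0.121).

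**Figure D3:**
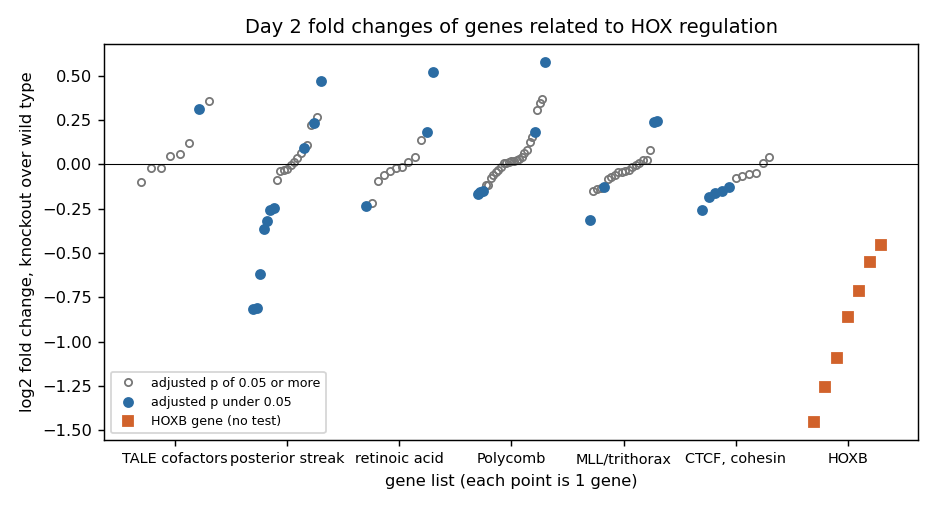
Log2 fold change (knockout over wild type) at day 2 of each tested gene in 6 lists and of the 7 HOXB genes, 1 point a gene. Filled points have an edgeR adjusted p under 0.05; in these 6 lists only WNT5B, EVX1 and NKX1-2 fell as far as the HOXB range of −1.45 to −0.45.

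Markers of other cell types gave these values beside the HOXB levels, where 23.3% of all tested genes were called (12.3% higher, 11% lower). Of 4 tested amnion and trophoblast genes 3 fell, TFAP2C (−1.15), ISL1 (−1.16) and GATA3 (−0.21), and their list summed to 55.1 to 56.2 CPM in wild type and 43.7 to 45.2 in the knockout. Of 7 streak and mesoderm markers 3 rose and 2 fell (3928 to 3979 and 4035 to 4087 CPM). Of 7 pluripotency genes 2 rose, DNMT3B (0.17) and TDGF1 (0.13), and 1 fell, NANOG (−0.57), with 2564 to 2578 and 2699 to 2720 CPM for the list. Of 4 endoderm genes 1 fell, SOX17 (923 to 942 and 856 to 875 CPM for the list), of 2 neural genes 1 rose, NES (518 to 542 and 556 to 598 CPM), and of 2 hemato-endothelial genes 1 fell, ETV2 (27.4 to 32.2 and 26.2 to 26.99 CPM). ETV2 lost its call under DESeq2, the replicate block and without any 1 library other than knockout replicate 1 (adjusted p of up to 0.164). None of the markers in the table was at 0 in all libraries, and SOX2, FOXA2, TAL1, CD34, PECAM1 and CDH5 were not analysed here at day 2. Their part in the HOXB difference was not tested.

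The genes closest to the HOXB profile were found by the root mean square distance, over the 6 day 2 libraries, between a gene's log2 CPM centred on its own mean and the mean of the 7 centred HOXB profiles. Among 10174 genes of at least 5 CPM, SETD7 itself was the nearest (0.0738 on the log2 scale). EVX1 (0.0916) and WNT5B (0.101) followed, then the prostaglandin-degrading enzyme gene HPGD (0.108), the sterol reductase gene TM7SF2 (0.117), RASGEF1B (0.119), the scramblase gene PLSCR1 (0.128) and the noncoding gene PCAT14 (0.134). The single HOXB genes lay at 0.10 (HOXB6) to 0.301 (HOXB5) from their own mean. The distances rest mostly on the difference between the genotypes and are a description over libraries that share their scaling.

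**Figure D4:**
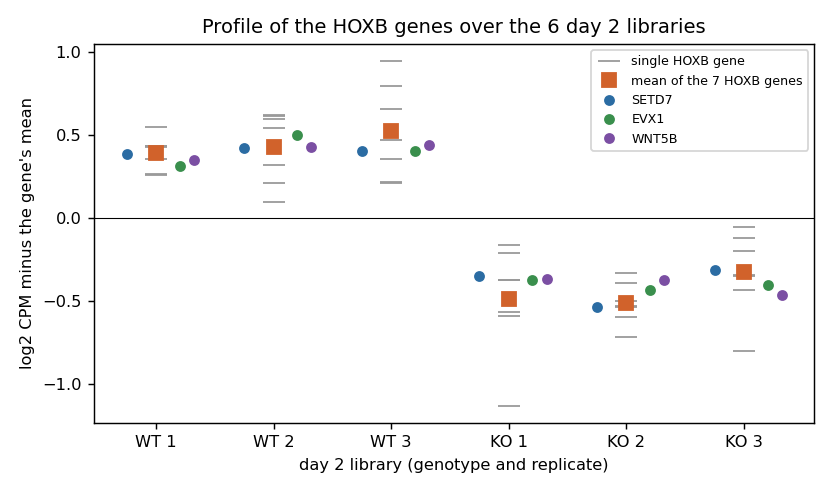
Log2 CPM minus the gene's mean over the 6 day 2 libraries (WT, wild type; KO, SETD7 knockout) for the 7 single HOXB genes (dashes), their mean (squares) and the 3 nearest genes (circles). The HOXB mean lies at 0.39 to 0.52 in wild type and at −0.52 to −0.33 in the knockout. SETD7, EVX1 and WNT5B lie near it because they were picked for the smallest distance over these libraries.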

How the data were processed

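RNA-seq libraries of H1 cells were grouped by genotype and day from the sample titles. Per the labels' protocols, TRIzol served for RNA extraction and a SMARTER mRNA kit for the libraries. The submitters' processing notes name HISAT2, StringTie and GRCh38 (hg38). Neither the counting tool nor its strand setting or annotation is stated there. The authors deposited counts per gene for day 2 and FPKM for day 0, per the file headers, which were compared only within their own table.

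For day 2, TMM scaling and the filterByExpr filter were applied (11475 of 11644 genes, all 7 HOXB genes among them), and genotype was tested with edgeR 4.0.16 in R 4.3.3 (robust quasi-likelihood fit, calls at a Benjamini-Hochberg adjusted p under 0.05 over all genes). Symbols were matched to GENCODE release 29 for 98.8% of genes. Counting error was 1 over the square root of the mean count. Day 0 ratios used log2 of FPKM + 1. Python 3.11.15 was used for the rest. The edgeR steps were tested on simulated counts.

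The HOXB genes, the lists and the tests were chosen with earlier results of these data known. Named were the HOXB genes, SETD7, other HOX genes above 0, up to 4 called genes of smallest p per list and among the flanking genes, the nearest tested flanking genes, and the 8 genes nearest in profile (0.1 CPM added before the log); others named were chosen after their values were seen. Some items are not reported here. Alternatives were DESeq2 1.42.0 (size factors, and its Wald test), upper-quartile scaling, a minimum mean of 1 CPM or no filter on low counts, the replicate number as a block, each library left out, other pseudocounts and an FPKM minimum at day 0, and the longest transcript as length.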

Additional observations from a re-analysis of the deposited data

Results flagged for a closer look

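All 3 HOXB genes above 0 at day 0 had the higher day 0 value in the knockout. Their day 2 direction, lower in the knockout, was known when the genes were chosen. For HOXB6, the day 0 log2 ratio of FPKM + 1 (knockout over wild type) was 0.158, from 0.0258 and 0.144 FPKM in 1 library each, while all 3 knockout libraries lay below all 3 wild-type ones at day 2 (−1.09). For HOXB3 and HOXB9 the day 0 log2 ratios were 0.017 and 0.0156, from 0 in wild type and 0.0118 and 0.0109 FPKM in the knockout, and their day 2 log2 fold changes −0.45 and −0.86. With 0 in wild type, the day 0 ratios of HOXB3 and HOXB9 could only be positive, so nothing is read from their opposite sign. The differences between the days were not tested, and all these day 0 values are near 0.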

How the results depend on the processing

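Every HOXB gene kept a negative day 2 log2 fold change under each of the 12 day 2 alternatives run. Leaving out 1 library at a time moved the median between −0.96 and −0.75, and the single genes no further than −1.47 to −1 for HOXB5, −0.66 to −0.42 for HOXB7 and −1.52 to −1.31 for HOXB8. Same-numbered replicates did not deviate together (correlations of deviations −0.0728, −0.0721 and −0.0373). With 3 libraries a genotype, this cannot show whether same-numbered libraries were handled together. With the replicate number as a block, the median was −0.86, and edgeR called 1205 genes higher and 1005 lower in place of 1406 and 1262. Leaving out 1 library gave 1098 to 1307 higher and 907 to 1202 lower, and 1 to 3 lower flanking genes in place of 3. Of the 31 genes picked by the naming rule that passed, 25 passed under every alternative run, and the lost calls of other genes stand beside their values. With the longest transcript as length, wild-type levels per kb became 8.79 (HOXB2), 3.08 (HOXB3), 13.1 (HOXB6), 2.14 (HOXB7) and 2.2 (HOXB8). With 0.1 and 5 FPKM added, the day 0 log2 ratios were 0.16 and 0.0034 for HOXB3, 0.96 and 0.034 for HOXB6, and 0.15 and 0.0031 for HOXB9, and a minimum of 1 FPKM left 0 of the 7 genes. HOXB5, HOXB7 and HOXB8 rest on 40 to 143 counts a library, so their fold changes are the least precise.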
